A study of Mus musculus with 6 samples.

Results

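The neutrophil lineage of the bone marrow of mice at postnatal day 8 (P8) was followed in a section in which single RNA molecules had been imaged in place by the Xenium platform, which reads barcoded probes for a fixed panel of genes. A cell was taken as a member when its outline held 5 or more counts of Elane, Ctsg, Fcnb, Pglyrp1 and Ifitm6 together, all genes of neutrophil granules or of the neutrophil surface. Of the 52594 segmented cells of the section, 6547 met this rule (12.4%, exact binomial 95% interval 12.2 to 12.7%). They were divided by Elane + Ctsg alone into 2936 early cells with 3 or more counts (44.8% of the gated cells), 1038 middle cells with 1 or 2 counts (15.9%) and 2573 late cells with 0 counts (39.3%). The 46047 cells outside the gate are called other cells.

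Neutrophils are made in the marrow from Kit-positive progenitors that pass through the promyelocyte, myelocyte and band stages. Granule proteins are transcribed in waves: myeloperoxidase, neutrophil elastase (Elane) and cathepsin G (Ctsg), the contents of the primary granules, are made first, and the contents of the later granules, such as the collagenase Mmp8 and the gelatinase Mmp9, are made after them. Cell division stops at about the myelocyte stage, and the surface receptors by which the mature cell meets bacteria and chemokines are acquired last. Fcnb (a ficolin), Pglyrp1 (a peptidoglycan-binding protein) and Ifitm6 (a membrane protein) are further genes used by cells of this line.

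All samples came from wild-type mice (C57BL/6 in the methods of the study) with no transgene. The P8 sample was a femur fixed in formalin, embedded in paraffin without decalcification and cut at 5 µm. The same panel of 477 genes was imaged in the liver of an embryo at day 14.5 (E14.5), in an untreated adult spleen and in the spleen of an adult given 40 mg/kg phenylhydrazine (PHZ), a drug that lyses red cells, by repeated intraperitoneal injection. The P8 marrow and the fetal liver lay on the same slide and the spleens on another, with 1 section per condition, so that condition, animal and section cannot be told apart and no difference between conditions or classes was tested. The intervals given below for shares and ratios of counts are exact 95% intervals for counting error only. A level is the summed count of a gene per 10000 counts of all genes outside the 5 of the gate, summed over all cells of a class, and a ratio is the quotient of 2 such levels.

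The study deposited 6446659 gene counts for the P8 section, with a median of 109 per cell. Early cells held a median of 141 counts (quartiles 102 and 190.2), late cells 116 (82 and 160) and other cells 106 (67 and 155). Counts of negative controls came to 0.00996% of the gene counts. Cells were nuclei with an expanded outline, so that an outline in packed marrow can take in transcripts of the next cell. Gated cells held 32.6 counts per cell of 13 erythroid genes, against 34.2 in the other cells, and Slc4a1, the anion exchanger of red cells, was seen in 81.9% of the gated cells. None of the 13 genes was at 0 in the gated cells. The summed level of the 13 genes was 2603 in early, 2581 in middle, 2300 in late and 2864 in other cells. The part of these transcripts in the results was not tested. The numbers of genes past 2-fold are also given below without the cells that held most of them.

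The stretches upstream of 5 genes on which the early and late classes turned are given first: Mpo, Elane and Ctsg of the primary granules, and Ly6g and Mmp8, the genes with the highest late over early ratios. They are the 250 bases before the annotated transcript start, 5′ to 3′ on the strand of the gene, from RefSeq on build GRCm38.p6 (the processed files name no build). Capitals mark matches on either strand to AGGAAGT (a PU.1 core), TTNNGCAA (a C/EBP pattern) or TGTGGT (a RUNX core).
Mpo (chr11:87793534-87793783, plus strand): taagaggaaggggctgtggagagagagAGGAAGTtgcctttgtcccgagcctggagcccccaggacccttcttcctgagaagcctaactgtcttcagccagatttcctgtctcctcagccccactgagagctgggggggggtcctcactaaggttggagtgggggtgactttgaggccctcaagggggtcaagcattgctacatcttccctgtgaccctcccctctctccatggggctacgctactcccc
Elane (chr10:79886062-79886311, plus strand): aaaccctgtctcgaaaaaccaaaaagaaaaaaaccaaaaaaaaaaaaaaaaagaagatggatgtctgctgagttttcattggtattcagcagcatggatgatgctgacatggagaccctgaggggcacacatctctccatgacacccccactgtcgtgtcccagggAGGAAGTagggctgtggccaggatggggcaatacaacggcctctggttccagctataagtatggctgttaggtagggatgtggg
Ctsg (chr14:56102575-56102824, minus strand): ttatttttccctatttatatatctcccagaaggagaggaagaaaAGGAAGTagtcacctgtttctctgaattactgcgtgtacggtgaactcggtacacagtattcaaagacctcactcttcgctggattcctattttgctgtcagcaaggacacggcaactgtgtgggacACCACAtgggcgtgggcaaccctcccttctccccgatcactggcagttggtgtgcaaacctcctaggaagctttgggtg
Ly6g (chr15:75155011-75155260, plus strand): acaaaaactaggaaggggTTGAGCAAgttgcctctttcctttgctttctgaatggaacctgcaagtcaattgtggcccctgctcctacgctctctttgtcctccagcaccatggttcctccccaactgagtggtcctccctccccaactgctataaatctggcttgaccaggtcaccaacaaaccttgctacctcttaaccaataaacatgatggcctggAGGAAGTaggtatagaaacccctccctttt
Mmp8 (chr9:7558179-7558428, plus strand): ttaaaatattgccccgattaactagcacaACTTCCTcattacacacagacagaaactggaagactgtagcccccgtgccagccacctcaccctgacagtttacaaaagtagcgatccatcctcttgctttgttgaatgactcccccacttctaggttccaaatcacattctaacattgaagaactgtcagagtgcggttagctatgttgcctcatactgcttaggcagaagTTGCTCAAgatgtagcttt
Each of the 5 stretches held the PU.1 letters, on the minus strand of the gene in Mmp8. The C/EBP letters stood in Ly6g and Mmp8, and the RUNX letters in Ctsg. Of all 27025 genes with such a stretch, 7.80% held the PU.1 letters, 9.55% the C/EBP letters and 14.2% the RUNX letters. Among the genes at least 2-fold higher in early cells, described below, 26 of 30 had a listed stretch and 3 of these held the PU.1 letters, 2 the C/EBP letters and 4 the RUNX letters. Among the genes at least 2-fold higher in late cells, 15 of 17 had a stretch, and 4 held the PU.1, 3 the C/EBP and 5 the RUNX letters. Over all 127 of the compared genes with a stretch the shares were 15.0%, 10.2% and 16.5%. The letters overlap in none of the 5 stretches shown, and a match describes the sequence only.

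The values behind the gate were as follows. Pglyrp1 was seen in 81.4% of the gated cells, Ifitm6 in 70.0%, Elane in 59.9%, Fcnb in 55.9% and Ctsg in 21.4%. Only 3.25% of the gated cells passed on a single gene, most of these on Elane (123 cells) or Ifitm6 (73 cells), and 220 cells held all 5 genes. Between 65.0% (Ifitm6) and 85.5% (Ctsg) of the counts of each gene in the whole section lay in the gated cells. Of the 3 gate genes that did not divide the classes, Fcnb stood at 150.1 in early and 80.9 in late cells, Pglyrp1 at 127 and 241 and Ifitm6 at 68.9 and 382. These levels are in part fixed by the rule, since a late cell has to reach 5 counts on these 3 genes alone and an early cell does not. At the edge of the gate, the 1215 cells with exactly 5 counts had a level of 138 for Mpo, 309.7 for S100a9 and 101 for Ncf4, whereas the 1546 cells with 4 counts, just outside, had 100.3, 287 and 86.0. The gate therefore cuts a continuous range, and cells just outside it carried much of the same transcripts. Muscle and cartilage cells, which should lack these genes, gave a background for tissue from which gated cells are almost absent. None of 3119 cells with 10 or more counts of muscle genes was in the gate. This allows a share of up to 0.0962% by the rule of 3 counts for a count of 0 (exact binomial upper bound 0.118%). Of 4427 cells with 10 or more counts of cartilage genes 3 were in the gate (0.0678%). At least 1 gate count was seen in 6.73% of the muscle cells (median of 161 counts per cell), in 2.82% of the cartilage cells (median of 94) and in 39.9% of all cells, the gated cells included (median of 109). Such low shares did not hold for cells rich in erythroid counts. Of the 23624 cells with 10 or more counts of Slc4a1 + Hbb-bt, 2829 were in the gate (11.98%), beside 12.4% of all cells. At least 1 gate count was seen in 49.3% of these 23624 cells (median of 129). The part of transcripts taken in from the next cell in these shares was not tested.

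**Figure D1:**
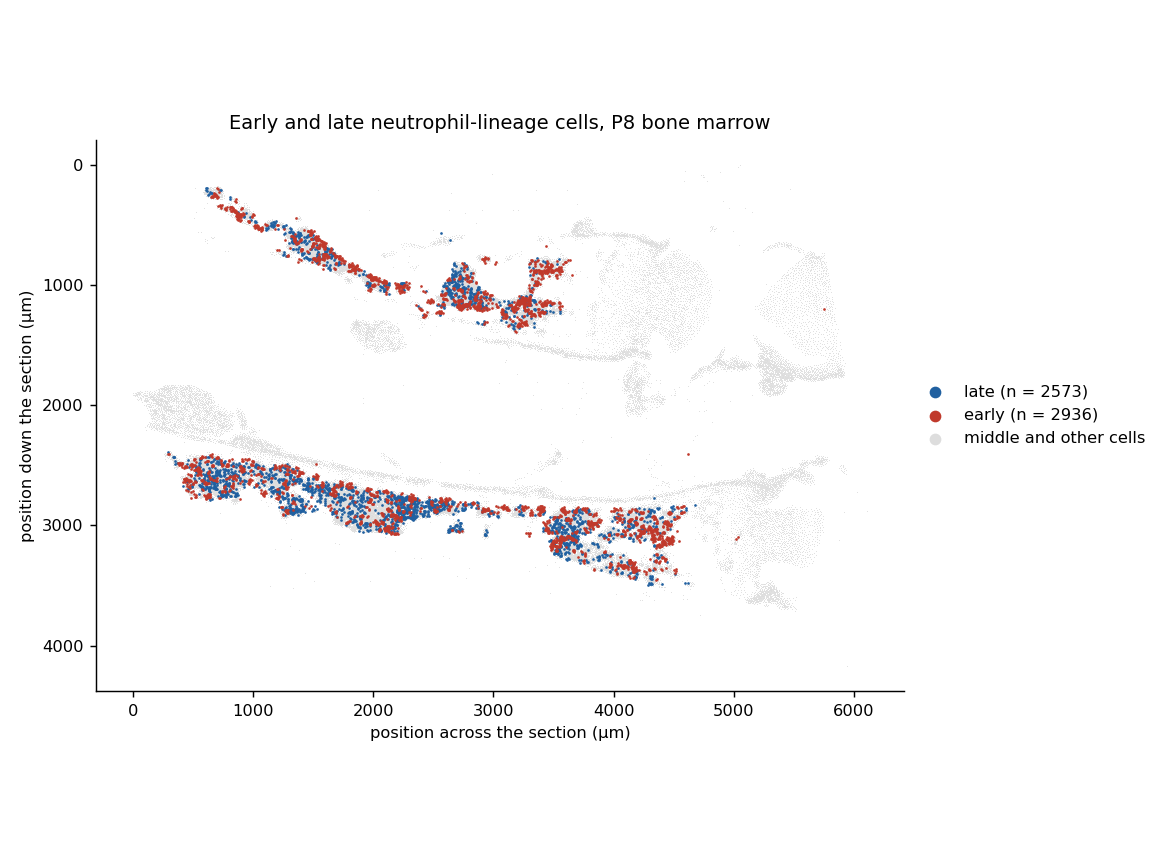
Position of the early cells (red, n = 2936) and late cells (blue, n = 2573) in the P8 section, with middle and other cells in grey and both axes in µm. Gated cells fill the elongated marrow spaces, are almost absent from the cartilage at the bone ends and from the muscle, and form patches of the same class.

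Outside the gate, genes of neutrophils were among those that set the gated cells apart from the other cells. All 15 of the 15 neutrophil genes outside the gate were at least 2-fold higher in gated than in other cells, where 45 of the 378 genes with 200 or more counts (11.9%) were, and their median ratio was 5.15 beside 0.813 over all genes. Their direction follows the choice of the cells and is a description. Also at least 2-fold higher in gated cells were 9 of 10 oxidase and signalling genes, 3 of 9 progenitor genes and 2 of 7 monocyte or dendritic genes. The highest ratio of all was that of Abca13, a lipid transporter of the ABC family, with a level of 20.9 in gated and 1.35 in other cells (ratio 15.5). Mpo followed with 264 against 25.3 (10.5), and C3, the central complement component, with 78.0 against 8.32 (9.37). Ly6g, the surface protein by which mouse neutrophils are usually sorted, had a ratio of 8.25, Mrgpra2a, a receptor gene of neutrophils, 8.22, Ncf4, a subunit of the phagocyte oxidase, 7.16, Hp (haptoglobin) 6.89, and Itgam, the integrin chain CD11b, 6.62. As averages over a class, Abca13 and C3 were at 17.9 and 72.2 in early and 25.3 and 83.1 in late cells, less than 2-fold apart. Abca13 was seen in 21.3% and C3 in 53.2% of the gated cells, against 1.53% and 7.91% of the other cells.

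At the other side, 106 of the 378 genes (28.0%) were at least 2-fold higher in other cells. All 5 cartilage genes and all 7 muscle genes were among them, with summed levels of 7.12 and 3.68 in gated cells and 511 and 274 in other cells. Acan, the large proteoglycan of cartilage, stood at a ratio of 0.0106, and Ttn, the giant protein of the sarcomere, at 0.00845. Without the gated cells that held 3 or more C1q counts or 10 or more counts of Slc4a1 + Hbb-bt, 57 of 364 genes were at least 2-fold higher in gated cells. All other cells were kept there, so the 2 sides were not filtered alike. Of the 6547 gated cells 2829 met the Slc4a1 + Hbb-bt rule and were left out. The part of this filter in the number was not tested. Against only those other cells that lay within 50 µm of a gated cell, 39 of 302 genes were at least 2-fold higher in gated cells.

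Early and late cells differed most in Mpo, which encodes myeloperoxidase, the peroxidase of the primary granules. Mpo was not used by the gate. Like Elane and Ctsg, which cut the classes, it is a gene of the primary granules, so its direction is a description. It was seen in 95.0% of the early, 55.6% of the middle and 14.9% of the late cells, and in 14.8% of the other cells. Its level was 499.8 in early, 107 in middle, 19.9 in late and 25.3 in other cells, and the early over late ratio was 25.1 (23.1 to 27.2). The late cells thus stood at or below the level of the other cells, and the middle cells between the classes. After every cell had been thinned to 50 counts, with 66 early, 109 late and 7362 other cells too shallow and left out, the shares were 81.1% of early, 7.87% of late and 9.23% of other cells.

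Of the 176 genes outside the gate with 200 or more counts in early and late cells together, 30 (17.0%) were at least 2-fold higher in early and 17 (9.66%) at least 2-fold higher in late cells. The levels sum to 10000 in each class, and the median of the 176 ratios of early over late was 1.31, with 130 of them above 1. A ratio near 1.31 is therefore that of a typical gene. Per cell rather than per 10000 counts, 51 genes were at least 2-fold higher in early and 14 in late cells, with medians of 128 counts outside the gate in early and 108 in late cells. Without the cells that held 3 or more C1q counts or 10 or more counts of Slc4a1 + Hbb-bt, 40 of the 144 genes left with 200 or more counts were at least 2-fold higher in early and 15 in late cells.

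Of 9 progenitor genes compared, 4 were at least 2-fold higher in early and none in late cells, beside 17.0% and 9.66% of all genes compared, and their median ratio was 1.84. Kit, the receptor of stem cell factor, stood at 40.5 in early, 12.7 in middle, 11.5 in late and 12.3 in other cells (early over late ratio 3.51, 3.13 to 3.95). The level of Kit in late cells did not exceed that in other cells. The share of cells with a Kit count was 33.0% in early, 9.44% in late and 8.62% in other cells, and after thinning to 50 counts 16.1%, 4.34% and 4.79%. Cd34, a sialomucin of blood progenitors and of endothelium, had the second highest ratio of all genes, 6.86 (5.22 to 9.15), with levels of 12.9, 4.34 and 1.88 from early to late. In other cells Cd34 reached 18.4, above the early cells. Cd48, an adhesion molecule of the SLAM family, stood at 36.8 in early and 14.8 in late cells (2.48), and Emb, the membrane glycoprotein embigin, at 114 and 54.8 (2.08). Cd44, Cd164 and Slamf1 had ratios of 1.10, 1.27 and 1.08, below that of the typical gene.

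Further genes that led on the early side were Ly6c1 and the chemokine Ccl9. Ly6c1, a surface protein of the Ly6 family shared by monocytes, early neutrophils and vessels, was at 119 in early, 43.8 in middle, 30.6 in late and 13.8 in other cells (3.90, 3.64 to 4.18). Ccl9 was at 45.7, 19.3, 9.29 and 11.3 (4.91, 4.34 to 5.58). Gatm, an enzyme of creatine synthesis, had a ratio of 3.45, and Cpa3, a carboxypeptidase of mast cells and basophils that is also made by progenitors, 5.01. Cpa3 was seen in only 6.13% of early and 2.41% of late cells.

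The early side also held genes of bone-forming cells and of osteoclasts. Wif1, a secreted Wnt inhibitor of bone-forming cells, had an early over late ratio of 5.80 (4.75 to 7.13) and Atp6v0d2, a proton pump subunit of osteoclasts, 5.00 (3.95 to 6.38). Their levels in early cells, 20.8 and 13.3, were close to or above those in other cells, 18.6 and 7.74. Runx2, the transcription factor of osteoblasts, was at 19.8 in early, 9.16 in late and 19.5 in other cells (2.16). The 7 bone and stroma genes compared all had a ratio above 1, with a median of 1.60 and 1 gene past 2-fold (130 of all 176 genes lay above 1 and 17.0% past 2-fold), and their list summed to 581 in early, 511 in middle, 369 in late and 1298 in other cells. Col1a1, the collagen of bone, stood at 229 in early and 144 in late cells. Of the transcripts of Atp6v0d2 in gated cells 27.5% lay over the nucleus, the lowest share of 187 genes, and of those of Wif1 42.1%, beside 57.2% for Mpo. From transcripts over the nucleus alone the ratios were 6.02 (4.05 to 9.26) for Wif1 and 5.64 (3.02 to 11.5) for Atp6v0d2, from 202 and 79 counts.

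The genes that led on the late side were those of the later granules and of the mature surface. Of the 15 neutrophil genes outside the gate, 9 were at least 2-fold higher in late cells, beside 9.66% of all genes compared, Mpo alone was higher in early cells, and the median late over early ratio was 2.71, beside 0.765 over all genes compared. Ly6g was at 44.0 in late, 24.3 in middle, 7.48 in early and 2.83 in other cells, a late over early ratio of 5.88. Mmp8, the neutrophil collagenase of the secondary granules, was at 148, 82.3, 27.3 and 12.6 in the same order (5.41). Asprv1, an aspartic protease, had a ratio of 4.67, Plbd1, a phospholipase-like granule protein, 4.36, and Mmp9, the gelatinase of the tertiary granules, 3.21. Ly6g was seen in 34.7% of late and 8.38% of early cells, and after thinning to 50 counts in 18.5% and 3.14%. Mmp8 was seen in 57.6% and 19.0%, and after thinning in 43.1% and 9.41%. Most late cells therefore showed no Ly6g count at this depth.

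Some surface receptors were among the genes of the neutrophil and signalling lists with the highest late over early ratios. Cxcr2, the chemokine receptor by which neutrophils leave the marrow, was at 60.5 in late, 39.3 in middle, 17.2 in early and 7.64 in other cells (3.51). C5ar1, the receptor of the complement fragment C5a, had a late over early ratio of 3.42, the decoy receptor Il1r2 3.16, and the inhibitory receptor Cd300lf 2.90. Csf3r, the receptor of granulocyte colony-stimulating factor, was higher in late cells by less, at 76.1 against 52.0 (1.46), and was seen in 42.7% of early and 50.7% of late cells. Retnla, a secreted resistin-like protein, had a ratio of 2.86 on a low level, 7.77 in late and 2.72 in early cells.

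S100a9, a subunit of calprotectin, was present in both classes. It was at 547 in late, 425 in middle, 283 in early and 73.5 in other cells, a late over early ratio of 1.93 (1.89 to 1.98), and it was seen in 97.0% of late and 81.2% of early cells. Stfa2l1, of the stefin A family of protease inhibitors, had a ratio of 2.71, but its paralogues are nearly alike in sequence and the gene behind the probe is uncertain. Hp had a ratio of 1.52 and Alox5ap, the activating protein of 5-lipoxygenase, 1.68.

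Of the 10 oxidase and signalling genes, 4 were at least 2-fold higher in late and none in early cells, beside 9.66% and 17.0% of all genes compared. Cybb, the catalytic subunit of the phagocyte oxidase, was at 145 in late and 65.9 in early cells (2.21). Ncf4, of the same complex, was at 189.7 and 126 (1.51). Rac2, the small GTPase that activates it, was nearly level at 229 and 232, and at 74.8 in other cells (gated over other 3.05). Bst1, an ectoenzyme, reached 2.43. Laptm5, a lysosomal protein of blood cells, lay the other way, at 147 in early and 96.3 in late cells. The parts of the oxidase were thus not graded alike between the classes.

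Along the Elane + Ctsg count the levels of Mpo, Ly6c1 and Mmp8 were graded rather than abrupt. The gate asks for fewer counts of the other 3 genes the more Elane + Ctsg a cell holds, so the steps differ in how cells were admitted, and its part in these levels was not tested. Mpo was at 19.9 in cells with 0 counts, 107 with 1 or 2, 286 with 3 to 5, 453 with 6 to 11, 795 with 12 to 23 and 1101 with 24 or more. Kit was at 11.5 and 12.7 in the first pair of steps and then at 21.6, 34.7, 63.0 and 111, and Ly6c1 climbed from 30.6 to 291 over the 6 steps. Mmp8 went the other way, from 148 through 82.3, 37.4, 22.9 and 21.3 to 11.4, and Cxcr2 from 60.5 to 11.7. Ly6g was at 44.0 with 0 counts, at its lowest of 4.61 with 12 to 23 and at 10.03 with 24 or more. C3 and Abca13 were lowest in the middle of the range, C3 at 55.3 with 3 to 5 counts against 83.1 with 0 and 101 with 24 or more, and Abca13 at 11.0 against 25.3 and 31.8. S100a9 was also lowest with 3 to 5 counts, at 265, and stood at 313 with 24 or more. The last step held only 147 cells, with a median of 196 counts outside the gate and a nucleus of 42.4 µm², against 108 counts and 23.1 µm² in the first.

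**Figure D2:**
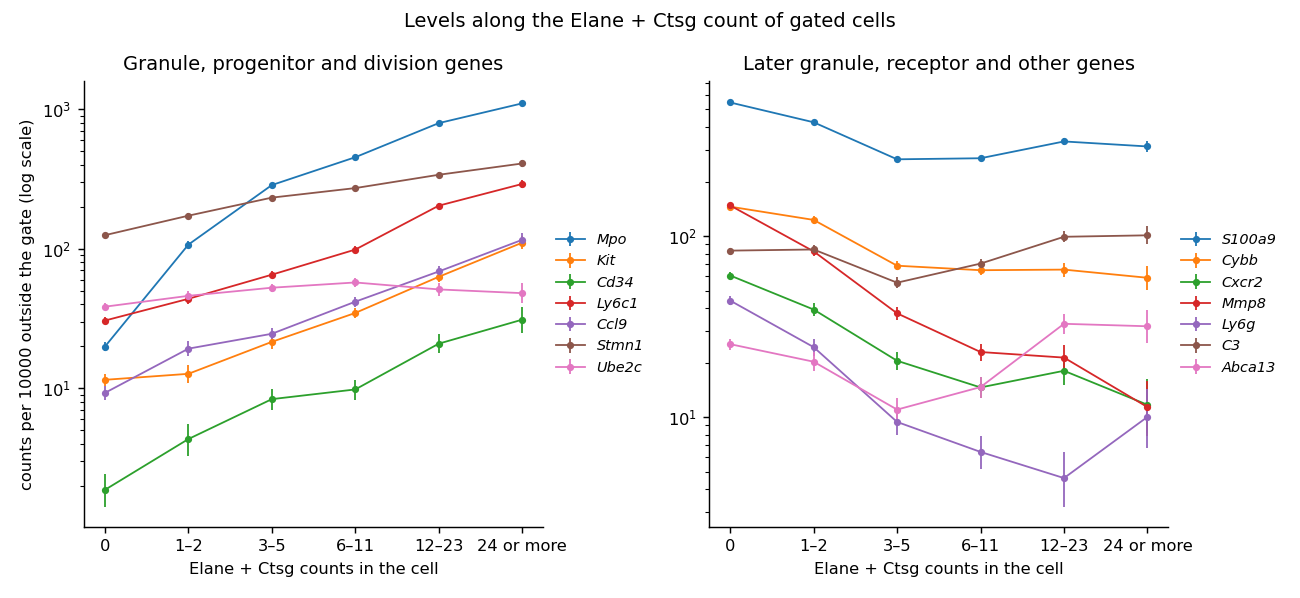
Levels of 14 genes, in counts per 10000 counts of genes outside the gate on a log scale, in gated cells grouped by their Elane + Ctsg count, with exact 95% intervals for counting error. Mpo, Kit, Cd34, Ly6c1, Ccl9 and Stmn1 climb with the count, Mmp8 declines at each step, and C3 and Abca13 dip at 3 to 5 counts.

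All 4 cell division genes on the panel were higher in early than in late cells, and 1 of them passed 2-fold, beside 130 of 176 genes above 1 and 17.0% past 2-fold among all genes compared. Stmn1, a tubulin-binding protein of dividing cells, was at 279 in early, 173 in middle, 125 in late and 140.0 in other cells (early over late 2.23, 2.15 to 2.32). Diaph3, a formin of the dividing furrow, had a ratio of 1.86, Cenpf, a kinetochore protein, 1.54 and Ube2c, the ubiquitin-conjugating enzyme of mitotic exit, 1.40 (1.30 to 1.50). The ratios of Cenpf and Ube2c lay near the 1.31 of the typical gene. Ube2c was highest with 6 to 11 Elane + Ctsg counts, at 57.4, and was at 48.1 with 24 or more. It was seen in 42.8% of early, 30.6% of late and 28.7% of other cells, but after thinning to 50 counts in 19.4%, 15.3% and 17.7%.

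Early cells had the larger nuclei. The median nucleus measured 26.2 µm² in early, 25.2 µm² in middle, 23.1 µm² in late and 21.7 µm² in other cells, and the ratio of the early over the late median was 1.14. Among cells with 60 to 200 counts outside the gate the ratio was 1.07. With 10 or more gate counts for admission the early nuclei were no longer larger (ratio 0.984), so that the difference depended on the gate. The nucleus took up 57.2% of the cell outline in early and 62.2% in late cells.

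Genes used by monocytes and dendritic cells were read in the same cells. Early monocytes are known to share the primary granule genes. Of 6 compared, 3 were at least 2-fold higher in early cells and none in late cells, beside 17.0% and 9.66% of all genes compared. Clec4a3 alone of the 6 was lower in early cells, at 6.39 against 7.80 in late cells (early over late 0.819, 0.685 to 0.979). F13a1, the coagulation factor XIII chain of monocytes, was at 59.8 in early, 17.2 in late and 22.2 in other cells (3.48, 3.16 to 3.82), Ms4a6c at 36.6, 11.3 and 8.29 (3.23) and the chemokine receptor Ccr2 at 23.2, 13.0 and 7.20 (1.79). At least 3 counts of Ms4a6c, F13a1 and Ccr2 together were found in 18.6% of early (17.2 to 20.1%), 11.8% of middle, 4.97% of late (4.17 to 5.89%) and 4.50% of other cells. The late cells lay near the other cells in this share.

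The 546 early cells with these 3 or more counts were set beside the 1572 early cells with none. Ly6c1 was at 208 in the former and 83.3 in the latter (2.50, 2.34 to 2.67), Emb at 217 and 72.9 (2.98) and Ccl9 at 73.2 and 28.8 (2.54). S100a9 was lower in the cells with the monocyte genes, at 204 against 319.6. The gate genes Pglyrp1 (76.2 against 151) and Fcnb (115 against 169) were lower as well, but they were used to admit the cells and are given as a description. Mpo and Kit were slightly higher there, at 578 against 459 and 45.4 against 36.1. Mmp8 was alike, at 29.4 and 28.8, and so was Csf3r, at 53.0 and 50.8. Ly6g was higher in the cells with the monocyte genes, at 9.40 against 7.05 (1.33, 1.00 to 1.76), and so was Cybb, at 90.1 against 59.7. The cells with the monocyte genes were deeper, with a median of 150 counts outside the gate against 117. The early class therefore held cells with monocyte genes besides cells without, and the gate does not separate these.

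Genes of other cells gave these values in the gated cells. Of 15 macrophage genes none was at least 2-fold higher in gated than in other cells, beside 11.9% of all genes, and C1qa, C1qb and C1qc, subunits of the first complement component, were at 16.2, 39.7 and 17.8 in early, 10.6, 28.4 and 12.1 in late, and 15.8, 40.2 and 20.6 in other cells. The whole macrophage list summed to 417 in early, 353 in late and 426 in other cells, and none of its genes was at 0. Of the 11 macrophage genes with enough counts to compare the classes, 1 was at least 2-fold higher in early cells, Ms4a7 (2.35), beside 17.0% of all genes compared. Cd163, a scavenger receptor below the minimum of 200 counts, was at 1.92 in early and 0.745 in late cells (2.58, 1.60 to 4.30). Endothelial genes summed to 64.6, 64.7 and 85.5 in early, late and other cells, and 3 megakaryocyte genes to 71.7, 62.8 and 75.0. Of 13 erythroid genes none differed 2-fold between early and late cells, beside 17.0% and 9.66% of all genes compared, and Hbb-bt, the adult beta-globin, was at 479.8, 481.9 and 491.5. Tfrc, the transferrin receptor, had the highest early over late ratio of the 13, 1.66. Lymphoid genes stood at 8.70, 8.26 and 7.49 in all, but not all went the same way. Cd3d, below the minimum of 200 counts, was at 0.899 in early, 2.78 in late and 0.797 in other cells. Cd4 was at 3.72, 2.40 and 2.95 in the same order. Of 3 eosinophil, basophil or mast cell genes 1 was at least 2-fold higher in gated cells, beside 11.9% of all genes: Prg2, the major basic protein of eosinophils, was at 49.2 in early, 37.6 in late and 20.5 in other cells.

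Of 6 cytokine and chemokine genes 1, Ccl9, was at least 2-fold higher in gated cells, beside 11.9% of all genes. Il1b, the inflammatory cytokine, was at 7.19 in late, 4.28 in early and 3.81 in other cells. Cxcl2, Ccl3, Ccl4 and Saa3 had too few counts for a comparison of the classes. Of the 4 interferon-linked genes compared between the classes none differed 2-fold, beside 17.0% and 9.66% of all genes compared, and Rsad2 was at 69.8 in late, 50.7 in early and 71.1 in other cells.

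Both classes were also restricted to cells with none of the other class within 20 µm (this restriction was chosen after seeing the data). In the 1431 early and 1338 late cells left, the early over late ratio of Mpo was 53.4 (45.8 to 62.6), and the late over early ratios were 9.63 for Ly6g, 8.14 for Mmp8 and 2.30 for S100a9. These ratios were higher than over all cells, whereas the early over late ratios of Cpa3 (4.03), F13a1 (3.24) and Ms4a6c (3.13) were lower and the late over early ratio of Mmp9 (3.22) was nearly the same. In this setting 39 of 157 genes were at least 2-fold higher in early and 17 in late cells. Late cells with an early cell within 10 µm had an Mpo level of 62.2, against 9.61 in late cells with none within 20 µm (ratio 6.47, 5.31 to 7.92), whereas their Kit and Ccl9 levels were 12.6 and 9.72 against 11.6 and 9.72. Early cells with a late cell within 10 µm had an Mmp8 level of 47.6 against 19.0 in early cells with none within 20 µm (2.51), and a Ly6g level of 16.1 against 4.67 (3.45). Mpo in late cells, and Mmp8 and Ly6g in early cells, were thus higher beside the other class. In late cells Ly6c1 was at 1.23 (1.01 to 1.48), Stmn1 at 1.12, S100a9 at 1.08 and Mmp8 at 0.895. The intervals for Kit, Ccl9, Ube2c, Ly6g and Cxcr2 in late cells took in 1. In early cells S100a9 (1.72) and Cxcr2 (2.63) were higher, and Mpo (0.868), Ly6c1 (0.842), Ccl9 (0.754) and Stmn1 (0.881) lower. Fcnb, at 1.82 (1.64 to 2.03) in late cells, was used to admit the cells and is given as a description.

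Cells of a class lay together. Of the cells with centres within 20 µm of an early cell 26.0% were early, against 5.08% around late cells and 4.09% around other cells, a ratio of 5.11 between early and late. Late cells made up 14.7% of the cells around late, 4.54% around early and 4.36% around other cells (3.23). Each class was thus most frequent around itself. Around the other cells within 50 µm of a gated cell, early cells made up 6.35% and late cells 6.77% of the neighbours, both above their shares around the opposite class. The early ratio was 11.1 within 10 µm, 3.96 from 10 to 20 µm and 2.08 from 20 to 40 µm, and it was 5.11 with classes cut on transcripts over the nucleus alone. An early cell had its nearest early cell at a median of 6.74 µm and its nearest late cell at 19.5 µm, and a late cell its nearest late cell at 7.23 µm and its nearest early cell at 20.7 µm. The part of transcripts taken in from the next cell in these shares was not tested.

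When cells of the same class closer than 10 µm were joined, 59 groups of 10 or more early cells held 30.1% of the early cells, and 21 such groups of late cells held 12.7% of the late cells. The largest group of either class had 31 cells. Single cells made up 18.8% of the early and 34.2% of the late cells. Of 32 squares of 500 µm with at least 500 cells, 19 held at least 50 gated cells. In these 19 the early share of the gated cells ran from 25.5% to 76.5% with a median of 49.5%.

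**Figure D3:**
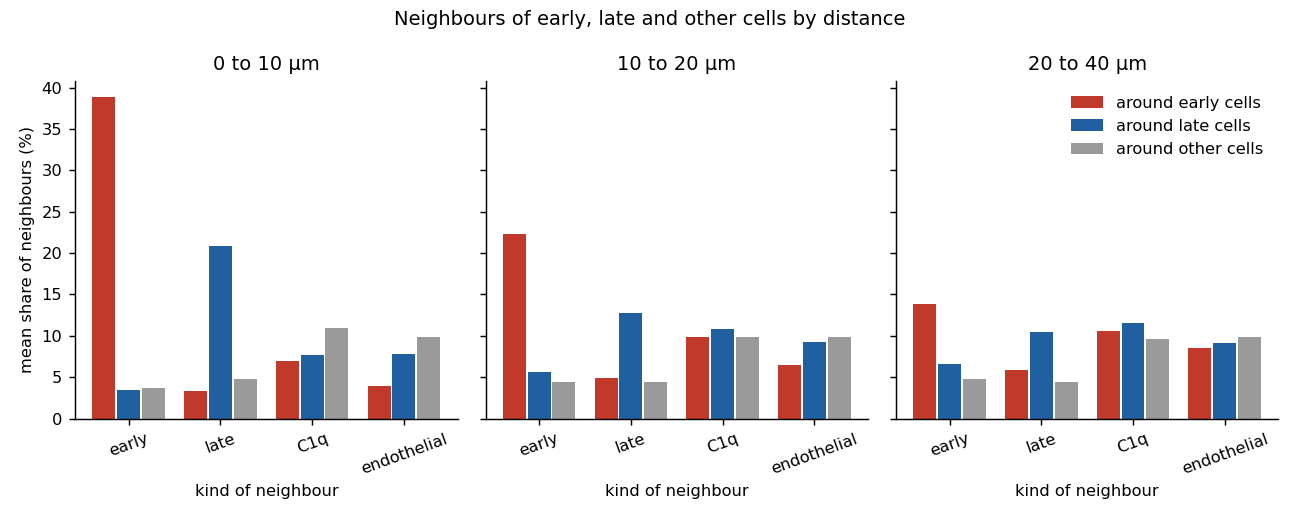
Mean share of early, late, C1q and endothelial cells among the neighbours of early (red), late (blue) and other cells (grey), for neighbours at 0 to 10, 10 to 20 and 20 to 40 µm. Early cells make up 38.8% of the neighbours of early cells within 10 µm and 13.9% at 20 to 40 µm, and at each distance the share of endothelial cells is higher around late than around early cells. C1q and endothelial cells lie outside the gate by definition, so their shares are lower where more of the neighbours are gated.

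Cells outside the gate with 3 or more counts of endothelial genes made up 8.85% of the neighbours of late cells within 20 µm and 5.94% of those of early cells (ratio 1.49), beside 9.77% around other cells. The nearest such cell was at a median of 13.9 µm from late and 18.2 µm from early cells. The ratio was 1.96 within 10 µm and 1.14 within 40 µm. Erythroid cells, with 10 or more counts of Slc4a1 + Hbb-bt, made up 51.1% of the neighbours of late and 41.2% of those of early cells. These shares are of all neighbours, of which 36.1% around early and 23.5% around late cells were gated cells and could be of neither kind. Over the neighbours outside the gate alone, endothelial cells made up 11.7% around late and 9.62% around early cells within 20 µm, and 11.4% and 10.9% within 40 µm, and erythroid cells 65.4% and 61.9% within 20 µm.

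The study dealt with erythroid cells and the C1q macrophages near them. For marrow of this age it reported that these macrophages were also strongly proximal to myeloid cells and neutrophils. It read this from cell type scores in capture spots of several cells each, a measure unlike the neighbour shares below. The study also mapped cell types in Xenium data of the same marrow and scored the proximity of pairs of types. Its text on those data describes erythroid cells with C1q macrophages and erythroid clusters without them, and does not speak of neutrophils. Here the place of the gated cells towards macrophages was read from cells outside the gate with 3 or more counts of C1qa, C1qb and C1qc. Such cells made up 9.48% of all neighbours of gated and 9.80% of those of other cells within 20 µm, as means over cells (ratio 0.967). A gated neighbour cannot be a C1q cell by this rule, and gated cells made up 30.4% of the neighbours of gated and 10.01% of those of other cells, so that the shares were also taken over the neighbours outside the gate alone (chosen after seeing the data). They were then 13.5% around gated and 11.2% around other cells within 20 µm (ratio 1.21). The other cells include cartilage and muscle, and around those within 50 µm of a gated cell the share was 14.1% (ratio 0.958). Against these near cells the share around gated cells was lower at each distance, 12.1% against 14.2% within 10 µm and 13.8% against 14.1% within 40 µm. Among the gated cells the share was 14.3% around early and 13.0% around late cells within 20 µm, 13.8% and 11.0% within 10 µm, and 13.8% and 14.1% within 40 µm. The nearest C1q cell was at a median of 13.9 µm from early, 12.5 µm from late and 14.5 µm from other cells. The order of gated against all other cells thus turned with the denominator, and against the other cells near them gated cells had the lower share at all 3 distances over neighbours outside the gate.

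The distance to bone depended on what was counted as bone. To the nearest cell outside the gate with 5 or more counts of bone or cartilage genes it was a median of 12.4 µm from early and 11.2 µm from late cells (ratio 1.11), but 21346 cells met that rule. With 50 or more counts of Col1a1, Col1a2 and Runx2, chosen after the data were seen and met by 2119 cells, it was 100.4 µm from early and 113 µm from late cells (0.886), and the order turned.

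More of the transcripts of gated cells lay over the nucleus than in other cells, 58.4% against 47.3%, with 56.2% in early and 61.1% in late cells. Over the 187 genes with 200 or more transcripts in gated cells the share ran from 27.5% to 76.2% with a median of 56.2%. The highest share was that of Abca13, with 76.2%, followed by Cd300lf with 74.0%. Among genes of the neutrophil lists and the gate, Mmp8 stood at 70.2%, Ly6g at 68.6%, Ifitm6 at 66.9%, Mmp9 at 64.5%, S100a9 at 63.5%, Pglyrp1 at 62.3%, Fcnb at 62.1%, Hp at 60.6%, Mpo at 57.2%, Elane at 55.1% and Ctsg at 53.5%. The nucleus filled a median of 59.6% of the outline in gated and 45.1% in other cells, close to the shares of transcripts. The nuclei of late cells filled more of the outline than those of early cells, as given above. The part of this geometry in the shares was not tested. With only transcripts over the nucleus and the classes cut again, 31 of 127 genes were at least 2-fold higher in early and 15 in late cells, and the ratios of Mpo, Kit and Ccl9 were 37.3, 5.45 and 7.92. The late over early ratios of Ly6g, Mmp8, Mmp9 and S100a9 were then 7.48, 7.20, 5.24 and 1.85. Of all Mmp9 transcripts of the section 13.5% lay in no cell, beside 2.92% for Mmp8.

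The same gate was applied to the other sections on this panel. It took in 2.86% of the cells of the E14.5 fetal liver, 0.706% of the untreated spleen and 2.12% of the PHZ-treated spleen, against 12.4% in the P8 marrow. The early share of the gated cells was 81.2% in the fetal liver, 62.5% in the PHZ-treated spleen, 44.8% in the P8 marrow and 19.0% in the untreated spleen, and the late share ran in the reverse order, 11.0%, 28.6%, 39.3% and 72.3%. Counting intervals of these shares do not overlap, but each condition is 1 section and none of the differences was tested. The P8 marrow thus held the highest share of gated cells while its early share lay between those of the spleens.

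The early over late ratios of Mpo, Mmp8 and Ly6g had the same direction in every section, which for Mpo is a description of the cut on Elane + Ctsg. The early over late ratio of Mpo was 25.1 in the P8 marrow, 12.9 in the fetal liver, 33.6 in the spleen after PHZ and 319.7 in the untreated spleen, where late cells held 12 Mpo counts. The late over early ratio of Mmp8 was 5.41 in the marrow and 31.6, 10.4 and 6.35 in the other sections in that order, and that of Ly6g was 5.88 and 15.9, 8.41 and 3.85. No gene was at least 2-fold higher in early cells of the P8 marrow and at least 2-fold higher in late cells of another section or the reverse, among the 143, 103 and 136 genes that could be compared in the fetal liver, the untreated and the PHZ-treated spleen. In the P8 marrow 17.0% and 9.66% of the genes compared were past 2-fold, so most genes could not meet this rule. The number of genes past 2-fold in the same direction was not computed. Kit had an early over late ratio of 3.51 in the marrow, 5.25 in the fetal liver, 1.72 in the spleen after PHZ and 1.00 without treatment, and Ccl9 4.91, 2.19, 1.18 and 1.20. In the untreated spleen the late cells held as much Kit as the early cells, at 50.2 in each. The late cells of that spleen had Ms4a6c at 147, Ccl9 at 53.0, S100a9 at 222 and Ly6g at 59.0. In the late cells of the P8 marrow these genes were at 11.3, 9.29, 547 and 44.0, and Kit at 11.5. The late classes of these sections were therefore unlike in level, and their shares are not shares of the same kind of cell.

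**Figure D4:**
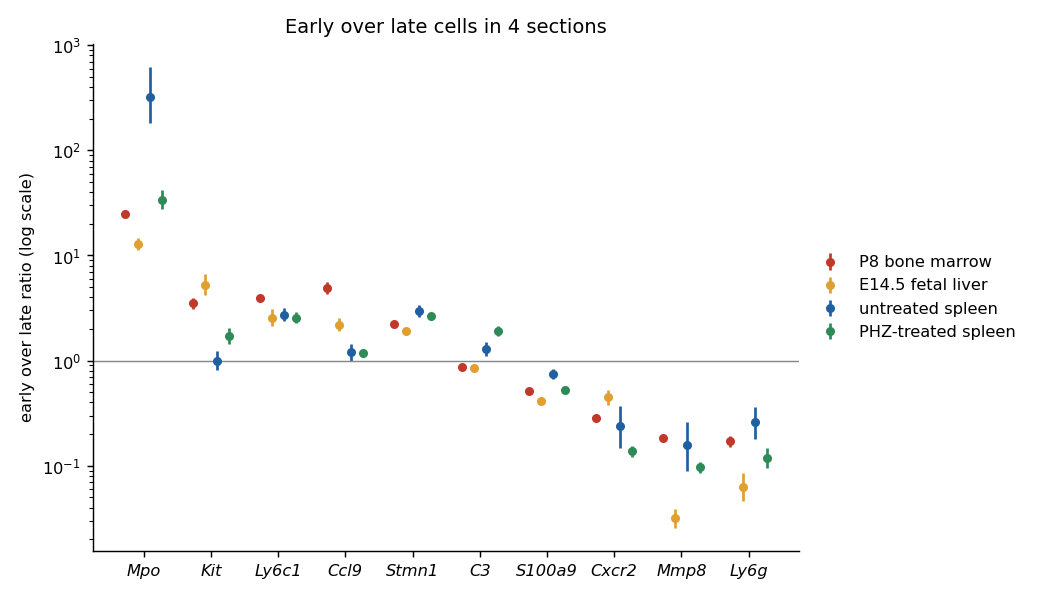
Early over late ratio of 10 genes in the 4 sections on the 477-gene panel, on a log scale with exact 95% intervals for counting error and a line at a ratio of 1. Mpo, Ly6c1 and Stmn1 lie above 1 and S100a9, Cxcr2, Mmp8 and Ly6g below 1 in all 4 sections, whereas C3 crosses the line.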

How the data were processed

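The authors deposited transcript counts per gene and segmented cell, not normalized, as made by the Xenium analysis software (version 1.7.1.0 in the run description, whereas the methods name Space Ranger), and a list of all transcripts, each with its quality score and a mark where it lay over a nucleus. The panel held 379 predesigned and 98 custom genes. The deposited counts of the P8 section were rebuilt from transcripts at a score of 20 or more with 0 entries that differed, and 10.6% of the gene transcripts at that score lay in no cell. All cells were kept, doublets were not called, and transcripts of neighbouring cells were not removed. Cells were gated on raw counts. Levels were summed counts per 10000 counts outside the gate, compared for genes with 200 or more counts over both classes, and a gene was called at a ratio of 2 or more.

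Ratios carry exact conditional Poisson intervals and shares exact binomial (Clopper-Pearson) intervals at 95%, for counting error only. With 1 section per condition no test was run. Neighbours were cells with centres within 20 µm. Endothelial and other kinds of neighbour were cells outside the gate with a minimum count of a gene list. For thinning, 50 counts were drawn without replacement from each cell. The members, the gene lists and the comparisons were chosen with earlier results of these data known. Genes were named if they stood in a list, or were among the 10 highest or 10 lowest early over late or the 10 highest gated over other ratios. The E13.5 liver and the aged marrow were not used, since their panel of 5050 genes holds 3 of the 5 gate genes. Python 3.11.15, numpy 2.4.6, scipy 1.17.1, pandas 2.3.3 and matplotlib 3.10.9 were used.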

Additional observations from a re-analysis of the deposited data

Results flagged for a closer look

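Of the 15 genes whose ratios were set side by side across the sections, chosen with their values known, the early over late ratio of 3 lay on the other side of 1 in another section than in the P8 marrow, with both counting intervals clear of 1. No share over all genes was computed. Ms4a6c had a ratio of 3.23 in the P8 marrow and 0.578 (0.496 to 0.671) in the untreated spleen. C3 had a ratio of 0.869 (0.824 to 0.916) in the P8 marrow, 1.30 (1.11 to 1.51) in the untreated and 1.92 (1.72 to 2.15) in the PHZ-treated spleen. Abca13 had a ratio of 0.706 (0.637 to 0.782) in the P8 marrow and 2.66 (2.14 to 3.34) in the PHZ-treated spleen. Each section is 1 sample, and the difference between sections was not tested.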

How the results depend on the processing

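Of 85 alternative values of 13 results, 40 stayed within the interval of the reported value or, for numbers of genes, within 1.5 times it, 40 moved further and 5 came to lie on the other side of 1. The gated share of 12.4% was 5.10% with 10 or more and 19.5% with 3 or more gate counts, 13.0% over cells with at least 5 detected genes, 13.2% over cells with at least 20 counts, 7.09% from transcripts over the nucleus and 5.40% after thinning to 50 counts. The early share of 44.8% was 61.0% with 10 or more and 33.9% with 3 or more gate counts, 40.9% over the nucleus and 32.5% with an early minimum of 5. The number of genes higher in early cells, 30 of 176, was 51 of 176 by mean counts per cell, 53 of 259 with at least 50 and 15 of 109 with at least 1000 counts per gene. The number higher in late cells ran from 14 to 19 and that higher in gated cells from 37 to 57. The 57 came from leaving cells rich in C1q or erythroid counts out of the gated cells alone. The number of genes with enough counts for early against late cells was 176, and 144 without cells rich in C1q or erythroid counts, 127 over the nucleus and 81 after thinning, so the counts are of unequal totals.

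The Mpo ratio of 25.1 was 33.2 with 10 or more gate counts, 29.1 with an early minimum of 5, 29.3 per cell, 37.3 over the nucleus, 21.2 after thinning and 53.4 among cells with none of the other class within 20 µm. The S100a9 ratio of 1.93 was 1.73 with 10 or more gate counts, 1.98 per 10000 of all genes, 1.66 per cell, 1.85 over the nucleus, 1.77 after thinning, 1.697 without cells rich in C1q or erythroid counts and 2.30 among cells apart from the other class. The Ube2c ratio of 1.40 was 1.63 per cell, 1.75 over the nucleus, 1.30 after thinning and 1.57 among cells apart. The nucleus area ratio of 1.14 was 1.07 in cells with 60 to 200 counts outside the gate and 0.984 with 10 or more gate counts. The early neighbour ratio of 5.11 was 11.1 within 10 µm, 2.73 within 40 µm and 3.96 without neighbours closer than 10 µm. The C1q neighbour ratio of 0.967 was 0.659 within 10 µm, 1.09 within 40 µm, 1.07 over the nucleus, 1.21 over neighbours outside the gate alone, 0.826 for cells with 10 or more C1q counts and 0.794 against other cells within 50 µm of a gated cell. The distance ratio of 1.11 was 1.00 with 10 or more skeletal counts, 1.04 for cartilage alone and 0.886 with 50 or more bone counts. The nuclear share of 58.4% was 58.9% at a quality score of 30 or more. Why these values moved was not tested. No paired analysis was possible because each condition has 1 section. The alternatives with cells apart, with neighbours outside the gate alone and with 50 or more bone counts were chosen after the data were seen.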
